A study of Saccharomyces cerevisiae with 18 samples.

Results

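The cell wall integrity genes described here are 10 genes of budding yeast (Saccharomyces cerevisiae), taken by name from 7130 gene identifiers. They are the kinase gene SLT2 (YHR030C), the regulator gene RLM1 (YPL089C), and 8 genes for wall proteins or a wall enzyme: CRH1 (YGR189C), CWP1 (YKL096W), PST1 (YDR055W), SED1 (YDR077W), PIR1 (YKL164C), PIR3 (YKL163W), CIS3 (YJL158C) and HSP150 (YJL159W). All 10 passed the filter on low counts. Messenger RNA was sequenced from log-phase cells growing at 25 °C in YPD, a rich glucose medium, in 4 strains with 3 libraries each. The strains are WT (CAY1015), fes1Δ (CAY1221, FES1 deleted), fes1ΔS (CAY1290) and fes1ΔL (CAY1256). S and L are the names of the splice isoforms of FES1, whose product promotes nucleotide exchange on Hsp70 chaperones. Each genotype is 1 strain. Libraries of a strain differ, by the design text, in the RNA isolation, and a p-value therefore rests on the variation among isolations, not among separately built strains. Another 6 libraries are labelled as heat-shocked at 37 °C for 30 minutes. Their table columns carry names that match no label, and giving them a strain from their URA3 counts would infer a group from values, so heat shock is not analysed here.

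The yeast wall is a mesh of glucan, chitin and mannoproteins. Stress on it is sensed at the plasma membrane by proteins of the Wsc and Mid families, which act through the GTPase Rho1 and the kinase Pkc1 on a MAP kinase cascade that ends in Slt2. Slt2 phosphorylates the MADS-box factor Rlm1, which is known to activate wall genes, and the pathway is also known to be switched on by growth at high temperature. The wall genes encode GPI-type mannoproteins (Cwp1, Pst1, Sed1), proteins of the PIR family that are bound through internal repeats (Pir1, Pir3, Hsp150 and Cis3), and the transglycosylase Crh1, which links chitin to glucan.

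Totals ran from 7608550 to 10246711 counts per library, and the 10 genes took 0.499% to 0.646% of them. Levels are in CPM, the count scaled to library size. FES1 was at 159 ± 8.59 CPM (SD, n = 3) under the label fes1Δ and 158 ± 7.49 CPM in WT, against 146 ± 3.27 CPM in fes1ΔL and 1434 ± 80.2 CPM in fes1ΔS. Since FES1 went against the deletion label, the text speaks of the libraries labelled fes1Δ. URA3, a gene of uracil synthesis used as a selection marker, had 1590 to 1868 counts in these and 0 to 3 counts in each of the other 9 libraries, so its effect cannot be told apart from that of the label. Of 6 MATa-specific mating genes, 5 were called lower under the label fes1Δ and 5 in fes1ΔS, where 7.15% and 3.44% of all tested genes were. Their summed levels were 1537 to 1749 CPM in WT, 1571 to 1649 CPM in fes1ΔL, 1236 to 1304 CPM in fes1ΔS and 1121 to 1185 CPM under the label fes1Δ. Of the 4 MATα-specific genes, both pheromone genes were too low to test. STE3, the receptor gene, was called higher under the label fes1Δ (log2 1.90), as were 5.72% of all tested genes. It had 1.94 ± 0.18 CPM in WT and 7.36 ± 3.12 CPM under that label. SAG1, at 55.6 and 53.2 CPM, was not called. The summed level of the 4, most of it from SAG1, was 54.1 to 66.0 CPM in WT and 57.8 to 66.8 CPM under the label fes1Δ. The part of mating type genes in the results below was not tested.

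Within WT the 10 genes covered a wide range per gene length. On the deposited FPKM scale, which corrects for gene length and library size, the structural wall protein gene SED1 was highest at 1253 ± 214 FPKM (SD, n = 3), followed by PIR1 at 982 ± 68.3, CIS3 at 828 ± 16.2 and HSP150 at 767 ± 97.9 FPKM. CIS3 and HSP150 overlapped between libraries, as did CWP1 (287 ± 24.5 FPKM) and CRH1 (253 ± 17.7 FPKM). PST1 had 142 ± 16.7 FPKM. For the members other than SLT2, CRH1, PST1 and SED1, these values come from lines with more values than column names, in which the WT columns were accepted because they followed the counts of the same WT libraries. The kinase gene SLT2 (50.6 ± 1.34 FPKM) and the factor gene RLM1 (21.6 ± 0.89 FPKM) lay well below the wall genes other than PIR3, which was lowest at 8.40 ± 1.36 FPKM. PIR1 and PIR3 are next to each other on the chromosome, as are HSP150 and CIS3. Proteins of the PIR family share repeats, and the sources used here do not say how reads that match several of these genes were counted, so their separate values are uncertain.

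**Figure D1:**
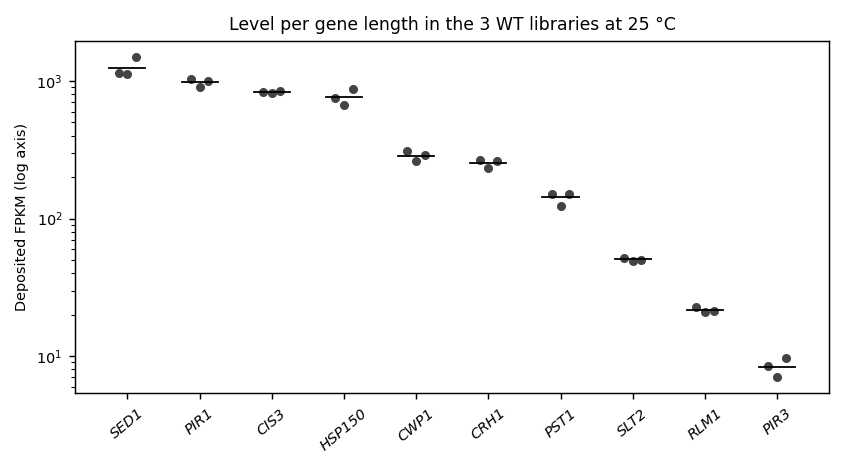
Deposited FPKM (log axis) of the 10 genes in the 3 WT libraries at 25 °C. Points are libraries and bars are means; SED1 is highest at 1253 FPKM and PIR3 lowest at 8.40 FPKM.

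In the libraries labelled fes1Δ, 3 of the 10 genes rose against WT and none fell. These were SED1 (1.56-fold), RLM1 (1.47-fold) and HSP150 (1.24-fold). A call is an adjusted p under 0.05 in edgeR's quasi-likelihood test, with p-values adjusted by Benjamini-Hochberg over 5719 genes. Among all tested genes 12.9% were called in this comparison, 5.72% higher and 7.15% lower, so the 3 members stand beside a broad change. The limma test on FPKM, which covered 2819 genes, split its calls into 78 higher and 363 lower, where edgeR had 327 higher and 409 lower. The median log2 fold change by edgeR was 0.13 over the 10 genes and 4.5e-04 over all genes tested. On FPKM it was -0.080 over all genes of that test. In 4 members the 3 libraries of one group lay entirely apart from the 3 of the other, against 25.1% of all genes.

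In fes1ΔS, 3 genes rose and 1 fell. SED1 (1.41-fold), HSP150 (1.25-fold) and RLM1 (1.26-fold) were again the higher ones, and CRH1 was lower (0.87-fold). The background of calls was 6.66% here, 3.22% higher and 3.44% lower, and the median was 0.056 over the 10 genes and -0.0033 over all. The libraries did not overlap in 6 members and in 28.1% of all genes. With any 1 of the 6 libraries left out, 1 or 2 of the 10 members were called, SED1 among them each time. Over all genes 251 to 410 were called in these fits. On FPKM the calls over all genes split into 58 higher and 150 lower, against 184 higher and 197 lower by edgeR. The FPKM median over all genes was -0.071. Both comparisons use the same WT libraries, so their results are not independent of each other.

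In fes1ΔL none of the 10 genes was called against WT, and 1 member, CRH1, had an unadjusted p under 0.05. DESeq2 also called none of them. The background was 0.0699% (4 genes called and 232 at an unadjusted p under 0.05). The median log2 fold change was -0.086 over the 10 genes and -0.0020 over all. SLT2 and CRH1 were below WT in every fes1ΔL library, a lack of overlap that 11.2% of all genes shared.

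**Figure D2:**
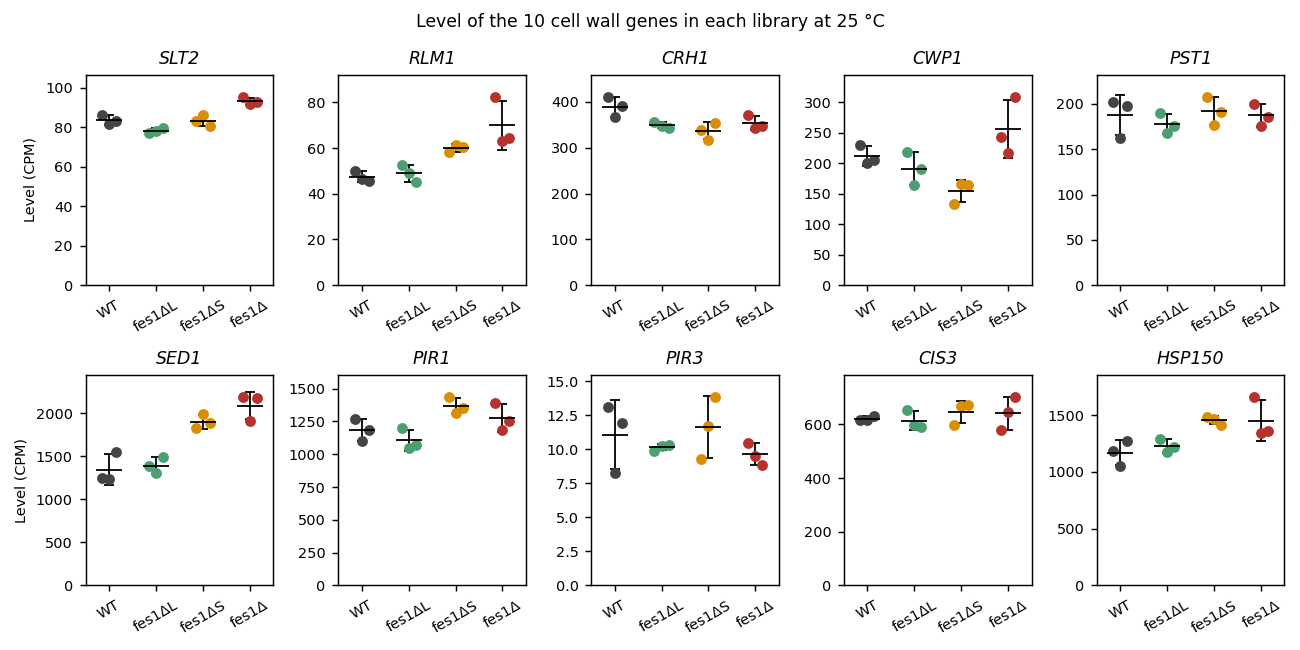
Level in CPM of each of the 10 genes in the 12 libraries at 25 °C, with mean and SD (n = 3) per strain. SED1, RLM1 and HSP150 lie higher in fes1ΔS and in the libraries labelled fes1Δ than in WT, while PST1, PIR3 and CIS3 overlap between all strains.

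**Figure D3:**
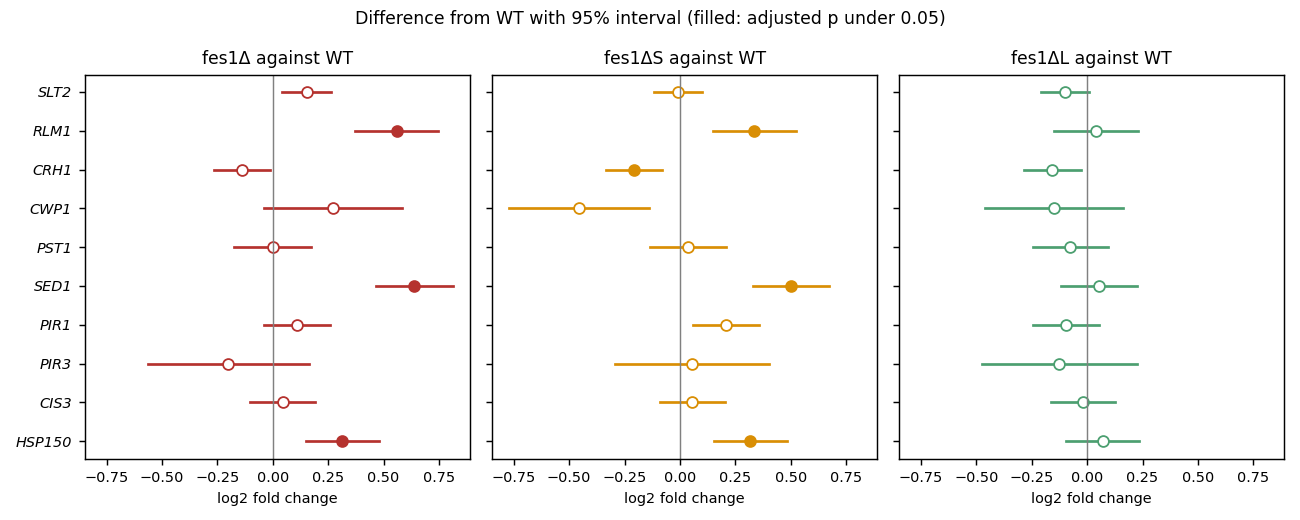
Log2 fold change against WT (points) with 95% interval (lines) for the 10 genes in each of the 3 other strains. Filled points are called: 3 genes in the libraries labelled fes1Δ, 4 in fes1ΔS and none in fes1ΔL.

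SLT2, the MAP kinase at the end of the cascade, varied little between isolations. It had 86.4, 81.8 and 83.1 CPM in WT, and 95.3, 91.8 and 92.5 CPM in the libraries labelled fes1Δ. In fes1ΔS it had 83.4, 86.0 and 80.5 CPM, and in fes1ΔL 76.9, 78.0 and 79.7 CPM. The libraries labelled fes1Δ were thus above, and those of fes1ΔL below, every WT library, while fes1ΔS overlapped WT. On deposited FPKM, the label fes1Δ (50.3 to 52.1) and WT (49.6 to 52.1) overlapped, with a log2 difference of 0.019 (limma, adjusted p = 0.857), and fes1ΔL (47.5 to 48.8) was below every WT library. Neither difference from WT was called: the log2 fold change was 0.15 for the label fes1Δ (95% interval 0.044 to 0.26, adjusted p = 0.0618 by edgeR) and -0.10 for fes1ΔL (interval -0.21 to 0.010). In fes1ΔS the interval was -0.12 to 0.10. Compared directly, the libraries labelled fes1Δ exceeded fes1ΔL by 0.25 (SE 0.05, adjusted p = 0.0031), but on deposited FPKM the value was 0.085, with no call (limma, adjusted p = 0.333). The median of all genes on FPKM was -0.092 in that comparison and -0.080 for the label fes1Δ against WT. The part of this shift in the lower SLT2 values was not tested.

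RLM1, the transcription factor gene downstream of Slt2, differed more than the kinase gene. Its levels were 50.1, 46.6 and 45.8 CPM in WT and 52.7, 49.1 and 45.1 CPM in fes1ΔL, which overlapped. In fes1ΔS they were 58.3, 61.5 and 60.4 CPM, and in the libraries labelled fes1Δ 82.3, 63.3 and 64.3 CPM. Every library of these strains was above every WT library, and replicate 1 of the label fes1Δ was the highest of all. RLM1 rose by 0.56 on the log2 scale under the label fes1Δ (SE 0.09, edgeR adjusted p = 2.29e-04) and by 0.34 in fes1ΔS (SE 0.09, adjusted p = 0.0272). Without replicate 1 of the label fes1Δ, the first value was 0.42 and remained called (adjusted p = 7.57e-04). The call in fes1ΔS was lost on leaving out WT 2, WT 3 or any fes1ΔS library (adjusted p from 0.0553 to 0.102).

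SED1, a GPI-anchored structural protein of the wall that is known to increase in stationary phase, had the largest difference from WT of the 10 genes in both strains in which it rose. Its levels were 1246, 1233 and 1554 CPM in WT and 1392, 1303 and 1490.0 CPM in fes1ΔL. They were 1828, 1990.35 and 1887 CPM in fes1ΔS, and 2187, 1908 and 2182 CPM in the libraries labelled fes1Δ. Every library of fes1ΔS and of the label fes1Δ was above every library of WT and fes1ΔL, while those of fes1ΔS and the label fes1Δ overlapped each other. Against WT, SED1 rose by 0.64 under the label fes1Δ (SE 0.08, edgeR adjusted p = 2.60e-05) and by 0.50 in fes1ΔS (SE 0.08, adjusted p = 5.15e-04). On FPKM the values were 0.57 and 0.42, both called (limma, adjusted p = 0.00389 and 0.0269). In fes1ΔL the interval was -0.12 to 0.23. Against fes1ΔL, the fes1ΔS libraries were higher by 0.45 (adjusted p = 0.00169), a call that was lost on FPKM (0.37, limma, adjusted p = 0.0561). The FPKM median of all genes was -0.080 in that comparison.

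Because SED1 is known for stationary phase, a pair of other wall genes with that background is set beside it. The pair was picked after its values were seen, and each gene was called in only 1 of the strains. YGP1, a secreted glycoprotein gene, had 335 to 506 CPM in WT, 475 to 622 CPM under the label fes1Δ and 663 to 749 CPM in fes1ΔS, and passed the test in the latter. SPI1, a GPI wall protein gene, had 7.85 to 9.85 CPM in WT, 10.95 to 18.9 CPM under the label fes1Δ and 10.97 to 13.4 CPM in fes1ΔS, and passed the test in the former. That SPI1 call was lost without WT 1 or fes1Δ 3, with no other strain in the model and on FPKM. Over all tested genes 5.72% were called higher under the label fes1Δ and 3.22% in fes1ΔS. WT replicate 3, the highest WT library for SED1, was also the highest WT library for YGP1 and SPI1. The part of growth phase in the SED1 result was not tested.

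CWP1, a GPI-type mannoprotein gene, was the only member to differ by a call between the libraries labelled fes1Δ and fes1ΔS. It had 242, 217 and 308 CPM under the label fes1Δ and 134, 166 and 164 CPM in fes1ΔS, with no overlap. WT had 229.8, 200.1 and 205 CPM, and fes1ΔL 219, 164 and 190.4 CPM. WT was above every fes1ΔS library and overlapped the label fes1Δ, and fes1ΔL overlapped fes1ΔS. The direct difference was 0.73 on the log2 scale (interval 0.41 to 1.04, edgeR adjusted p = 0.0233). The call was lost without replicate 1 of the label fes1Δ, or fes1ΔS replicate 1 or 3 (adjusted p = 0.0826, 0.0790 and 0.0594). Against WT, CWP1 was at 0.27 under the label fes1Δ and at -0.45 in fes1ΔS, neither called (adjusted p = 0.255 and 0.0926). Without fes1Δ 3 the first was 0.12. With no other strain in the model, the value in fes1ΔS was called (adjusted p = 0.00557). CWP2, the neighbouring gene for a similar mannoprotein, was at 0.38 and 0.26 against WT, neither called (adjusted p = 0.270 and 0.511).

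PST1, another GPI-anchored wall protein gene and one known to be induced through Slt2, overlapped between all strains. All 12 libraries lay within 162 to 208 CPM, with 187 ± 22.1 CPM in WT and 187 ± 12.5 CPM under the label fes1Δ. Against WT the intervals were -0.17 to 0.17 under the label fes1Δ, -0.14 to 0.21 in fes1ΔS and -0.25 to 0.096 in fes1ΔL.

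Of the PIR genes, HSP150 was the one that rose in both strains. It is named for its induction by heat and encodes a secreted wall glycoprotein. It had 1181, 1054 and 1274 CPM in WT and 1291, 1175.6 and 1218 CPM in fes1ΔL. In fes1ΔS it had 1488, 1466 and 1418 CPM, and under the label fes1Δ 1657, 1344 and 1357 CPM. All of these last 6 libraries were above all of WT and fes1ΔL. HSP150 rose by 0.31 under the label fes1Δ (SE 0.08, edgeR adjusted p = 0.0116) and by 0.32 in fes1ΔS (SE 0.08, adjusted p = 0.0160). Without replicate 1 of the label fes1Δ the first value was 0.21 and not called (adjusted p = 0.0666). Nor was it called with no other strain in the model (adjusted p = 0.0512). In fes1ΔS the call was lost on leaving out WT 1, WT 2, fes1ΔS 1 or fes1ΔS 2 (adjusted p from 0.0521 to 0.0712). The direct difference between the label fes1Δ and fes1ΔS had an interval of -0.17 to 0.16.

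CIS3, its neighbour on the chromosome, did not pass the test in any comparison. It had 622 ± 9.69 CPM in WT, 641 ± 60.9 CPM under the label fes1Δ, 646 ± 41.2 CPM in fes1ΔS and 614 ± 35.8 CPM in fes1ΔL. The intervals against WT were -0.10 to 0.19, -0.090 to 0.20 and -0.16 to 0.13. YJL160C, a further PIR family gene on the other side of HSP150, was at 1.57 CPM in WT and 1.74 CPM under the label fes1Δ.

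PIR1 had 1267, 1099 and 1187 CPM in WT and 1391, 1182 and 1257 CPM under the label fes1Δ, which overlapped. In fes1ΔS it had 1434, 1313 and 1356 CPM, above all WT libraries, and in fes1ΔL 1200.5, 1049.6 and 1073 CPM. Against WT it was at 0.21 in fes1ΔS (interval 0.059 to 0.36, edgeR adjusted p = 0.0909) and was not called. It was called higher in fes1ΔS than in fes1ΔL (0.30, SE 0.07, adjusted p = 0.0130), but not without fes1ΔL replicate 2 or 3 or fes1ΔS replicate 1 (adjusted p = 0.107, 0.0907 and 0.0761). PIR3 had only 66 to 125 counts per library, between 8.22 and 13.8 CPM, and its intervals against WT ran from -0.56 to 0.16 under the label fes1Δ and from -0.29 to 0.40 in fes1ΔS.

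PIR genes are known to vary over the cell cycle, so lists of cell cycle genes are given beside them. Of 8 G1/S genes, 3 were called lower under the label fes1Δ and 4 in fes1ΔS, and of 8 G2/M genes none in either, where 7.15% and 3.44% of all genes were called lower. The summed level of the G1/S genes was 1415 to 1500.3 CPM in WT, 1407 to 1441 CPM in fes1ΔL, 1219 to 1251 CPM in fes1ΔS and 1238 to 1303 CPM under the label fes1Δ. The part of the cell cycle in the PIR values was not tested.

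CRH1, the enzyme gene, was the member that fell. It had 410.4, 367 and 391 CPM in WT, 371, 342 and 347 CPM under the label fes1Δ, 339.5, 317 and 355 CPM in fes1ΔS, and 356, 348 and 344 CPM in fes1ΔL. The fes1ΔS and fes1ΔL libraries were all below WT, and those labelled fes1Δ overlapped it by 1 library. In fes1ΔS it fell by 0.21 on the log2 scale (SE 0.06, edgeR adjusted p = 0.0453). That call was lost with no expression filter (adjusted p = 0.0523), with no other strain in the model (0.0504) and on leaving out WT 1, WT 3 or any fes1ΔS library (0.0501 to 0.232). Under the label fes1Δ the value was -0.14 (adjusted p = 0.147), and on FPKM -0.22, where it was called (limma, adjusted p = 0.0414). The median of all genes was -0.080 on FPKM there, against 4.5e-04 by edgeR. The part of this shift in the CRH1 call was not tested. UTR2, a gene for a related transglycosylase, was at -0.017 and -0.069 against WT in these strains, neither called.

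The strains were also compared directly with each other. Between the libraries labelled fes1Δ and fes1ΔS, CWP1 was the 1 member called, against a background of 2.47% (1.22% higher). Without fes1Δ 1, fes1ΔS 1 or fes1ΔS 3, no member was called there, and over all genes 119, 59 and 73 were. RLM1 and SED1 had log2 differences of 0.22 (interval 0.040 to 0.41) and 0.14 (interval -0.034 to 0.31) there, neither called (adjusted p = 0.251 and 0.539). Without fes1Δ 1 the RLM1 value was 0.087. Against fes1ΔL, 3 members were higher under the label fes1Δ: SED1 at 0.58, RLM1 at 0.52 and SLT2 at 0.25, with a background of 9.51% (4.41% higher). Without fes1Δ 2, 5 members were called, where 421 of 5744 genes were. In fes1ΔS, SED1 at 0.45 and PIR1 at 0.30 were higher than in fes1ΔL, with a background of 4.83% (2.76% higher). On FPKM the calls over all genes split into 15 higher and 25 lower for the label fes1Δ against fes1ΔS, 66 and 342 for it against fes1ΔL, and 57 higher of 184 for fes1ΔS against fes1ΔL. The edgeR splits were 70 and 71, 252 and 292, and 158 and 118. The median over the 10 genes was 0.032 for the label fes1Δ against fes1ΔS, 0.22 for it against fes1ΔL and 0.14 for fes1ΔS against fes1ΔL. Over all genes these medians were 1.4e-04, 0.0023 and -0.0020 by edgeR, and -0.016, -0.092 and -0.080 on FPKM.

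The remaining genes of wall signalling and construction were taken as lists of 74 genes, of which 72 were tested. Under the label fes1Δ, 9 rose and 6 fell, and in fes1ΔS 4 rose and 2 fell. Over all tested genes the shares called were 12.9% and 6.66%, and read against them the count in fes1ΔS is near the background. In fes1ΔL none was called by edgeR or DESeq2. With no other strain in the model, the label fes1Δ had 7 calls, 4 higher and 3 lower, where 466 of 5667 genes were called. Its count is thus near the background there. The calls of CHS1, EXG1, FIT1, GSC2, KNH1, KRE6, SPI1 and WSC2 were lost (adjusted p from 0.0752 to 0.139). In fes1ΔS that model gave 8 calls among 71 genes, 6 higher and 2 lower, where 462 of 5653 genes were called. FPKM covered 29 of the 72 genes and gave 5 and 1 calls for the label fes1Δ and fes1ΔS. Of all 2819 genes of that test, 441 and 208 were called. The median log2 fold changes of the 72 were 0.059, 0.038 and 0.013.

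**Figure D4:**
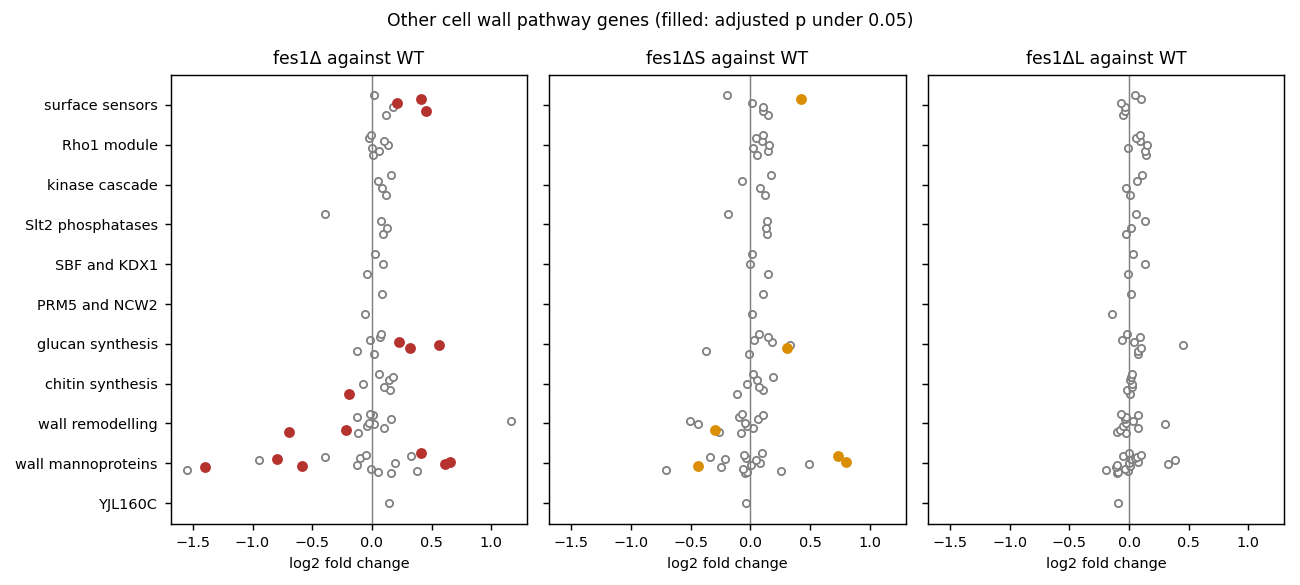
Log2 fold change against WT of the 72 other tested genes of wall signalling and construction, by list, in each strain. Filled points are called: 15 under the label fes1Δ, 6 in fes1ΔS and none in fes1ΔL.

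Sensor genes at the top of the pathway rose in 3 of 6 cases under the label fes1Δ, where 5.72% of all tested genes rose. WSC3 had 54.8, 51.9 and 58.5 CPM in WT and 70.8, 75.6 and 72.8 CPM there (log2 0.41, edgeR adjusted p = 5.71e-04). In fes1ΔS it had 72.9, 69.3 and 78.9 CPM, also above WT in every library (0.42, adjusted p = 5.56e-04), and was the only sensor gene called. WSC2 (0.21) and MTL1 (0.45), a relative of MID2, were the others to rise under the label fes1Δ (adjusted p = 0.0284 and 0.0186). The WSC2 call was lost on leaving out WT 1, WT 3, fes1Δ 1 or fes1Δ 2 (adjusted p up to 0.144) and the MTL1 call on leaving out WT 1 or fes1Δ 1 (up to 0.112) and on FPKM (limma, adjusted p = 0.128). WSC1 and MID2 were at 0.17 and 0.12 (adjusted p = 0.0940 and 0.231).

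Between the sensors and Slt2, none of the 7 tested genes of the Rho1 module and none of the 4 kinase genes PKC1, BCK1, MKK1 and MKK2 was called in any strain against WT. The kinase genes lay between 0.051 and 0.16 under the label fes1Δ and between -0.074 and 0.17 in fes1ΔS. None of the 4 phosphatase genes that act on Slt2 was called. KDX1, a gene for a kinase relative of Slt2, was at -0.044 and 0.14 in these strains, and PRM5 and NCW2, known as induced through Slt2 and Rlm1, lay between -0.057 and 0.11, all without a call.

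Among glucan synthesis genes, 3 of 8 rose under the label fes1Δ, beside the same 5.72% of all genes. GSC2, the stress-induced subunit of glucan synthase, rose by 0.32 (edgeR adjusted p = 0.0183) and by 0.30 in fes1ΔS (adjusted p = 0.0387). Its constitutive counterpart FKS1 was at 0.017 and -0.012. KRE6 and KNH1, both of beta-1,6-glucan synthesis, rose by 0.23 and 0.56 under the label fes1Δ. The GSC2 call was lost without WT 1, WT 2 or fes1Δ 2 (adjusted p up to 0.120), in fes1ΔS without WT 1, WT 2 or any fes1ΔS library (up to 0.207), and on FPKM in both. The KNH1 call was lost without WT 2 or any library labelled fes1Δ (up to 0.137). Of 7 chitin synthesis genes, only the chitin synthase gene CHS1 was called, lower by -0.19 under the label fes1Δ. Of 12 remodelling genes, the glucanase gene EXG1 (-0.22) and CRR1 (-0.70), a spore wall relative of CRH1, fell there, and EXG1 fell in fes1ΔS (-0.29). Over all tested genes 7.15% were called lower under the label fes1Δ and 3.44% in fes1ΔS. The CHS1 call was lost without any 1 WT library, fes1Δ 2 or fes1Δ 3 (adjusted p up to 0.0826), and the EXG1 call under the label fes1Δ without WT 3 or fes1Δ 2 (up to 0.0889). GAS4, a sporulation gene for a glucan-elongating enzyme, was the 1 gene of the 72 called between the label fes1Δ and fes1ΔS (1.68, edgeR adjusted p = 0.0497). Over all tested genes 2.47% were called in that comparison. GAS4 had 1.69 to 2.15 CPM under the label fes1Δ, 0.37 to 0.71 CPM in fes1ΔS and 0.36 to 1.36 CPM in WT. The lowest of these levels lie near 3 counts, which are 0.293 to 0.394 CPM, so the size of this difference is uncertain.

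Of 18 tested genes for other mannoproteins and wall-linked enzymes, 3 rose and 3 fell under the label fes1Δ, beside 5.72% and 7.15% of all genes. TIP1, a cold-shock mannoprotein gene, had 246, 244 and 291 CPM in WT and 425, 376 and 427 CPM there (log2 0.65, edgeR adjusted p = 6.12e-04). In fes1ΔS it had 536, 379.7 and 446 CPM (0.80, adjusted p = 1.24e-04). No library of either strain overlapped WT. The yapsin gene YPS3 (0.41) and SPI1 (0.62) also rose under the label fes1Δ, and YGP1 rose in fes1ΔS (0.73). The lysophospholipase gene PLB2 fell in both, by 0.59 and 0.44, from 139 ± 5.92 CPM in WT. TIR2 (-0.80) and FIT1 (-1.40), a mannoprotein of siderophore iron uptake, were called lower under the label fes1Δ, and neither was called against fes1ΔS. The FIT1 call was lost without WT 1, fes1Δ 1 or fes1Δ 3 (adjusted p up to 0.0986) and the SPI1 call without WT 1 or fes1Δ 3 (up to 0.139) and on FPKM (limma, adjusted p = 0.249). Without fes1Δ 3 the SPI1 value was 0.34.

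Nearest genes were taken for each member called in at least 1 comparison. They are the 3 tested genes with the highest Pearson correlation of log2 CPM with the member over the 12 libraries. These libraries share strain and depth differences, and r follows the pattern over them, not the size of a level or change. SED1 was closest to MTH1, a glucose signalling gene (r = 0.975), the lactate dehydrogenase gene CYB2 (0.951) and the mitochondrial disaggregase gene HSP78 (0.949). Under the label fes1Δ these 3 were at log2 0.97, 2.07 and 2.36 against WT, where SED1 was at 0.64. HSP150 was closest to CAR2 (0.932), MAL12 (0.932) and PDC1 (0.928), genes of arginine breakdown, maltose use and fermentation. RLM1 was closest to LDB19 (0.966), NDE1 (0.945) and the kinase gene STE20 (0.942). CWP1 was closest to YDR134C (0.919), CYC7 (0.901) and BIO2 (0.866), and PIR1 to AVT3 (0.909), CDC11 (0.908) and KGD1 (0.908). SLT2 had DSE3 (0.898), snR39 (0.881) and GSM1 (0.879) nearest, and CRH1 had YKL023C-A (0.879), BNI5 (0.861) and HOT13 (0.861). None of these nearest genes was another member.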

How the data were processed

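The authors deposited whole-number read counts per gene and FPKM values for the same 12 libraries at 25 °C. Per the submitters' processing notes, the build was sacCer2, and the tools, listed with no roles, were HTSeq 0.6.1, Cufflinks 2.1.1, TopHat2 2.0.4, bcl2fastq 1.8.3, Picard 1.29 and CASAVA. The kit selects poly(A) RNA and keeps strand, per the labels' protocols, but no source used here says whether counting used strand. In 2 heat-shock tables, 12 columns match no sample's label and were not used. Of the FPKM lines, 3501 have 24 values under 12 names. Their WT columns each matched their own library's counts best among WT (3 of 3) and were used for levels in WT, and the other values of these genes were left out. Of all 12 named columns, 4 matched their own library best in these lines, and 12 in the lines with 12 values.

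The test of counts was the quasi-likelihood test of edgeR 4.0.16, run in R 4.3.3 (TMM size factors, expression filter by group, robust quasi-likelihood fit of all 12 libraries, strain as the only term). Levels are CPM with TMM scaling, and 3 counts correspond to 0.293 to 0.394 CPM before it, which covers counting error only. SE and 95% intervals were derived from the F statistic. The fit was tested on simulated data. No 2 replicates agreed within sampling noise (12 pairs, chi-square over its degrees of freedom 2.60 to 14.7). Alternatives were RLE size factors, no filter, DESeq2 1.42.0, a fit of the 2 groups compared, a replicate block, limma 3.58.1 on log2(FPKM + 1) and log2(FPKM + 0.1) where the mean FPKM reached 1, and each library left out. An adjustment over the genes of the FPKM test was added after seeing the data. The members and gene lists were chosen with earlier results of these data known. All members are named, other listed genes where called against WT or where they neighbour or resemble a member, plus FES1, URA3 and nearest genes. Pathway genes named as not called were added after their values were seen, as were YGP1 and SPI1 as a pair beside SED1. Gene names come from the deposited tables, and the RefSeq R64 table was used only for names and neighbours. No sequences are given, because it is another build than the authors'. A further list of cell cycle genes is not reported here.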

Additional observations from a re-analysis of the deposited data

How the results depend on the processing

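Among the members, the SED1 and RLM1 calls under the label fes1Δ held in every setting in which the gene was tested, and fes1ΔL had 0 member calls in all of them. For fes1Δ against WT, 736 calls became 466 in the model of the 2 groups alone, 441 and 440 on FPKM with a pseudocount of 1 and 0.1, and 335 for edgeR adjusted over the genes of the FPKM test, a setting chosen after seeing the data. For fes1ΔS against WT, 381 became 208 and 210 on FPKM and 196 over those genes. For fes1Δ against fes1ΔS, 141 became 40, 41 and 62 in the same order. Over the genes of the FPKM test, fes1Δ against fes1ΔL gave 265 and fes1ΔS against fes1ΔL 134. The model of the 2 groups alone gave 464 for fes1ΔS against fes1ΔL, where the full model gave 276, and 10 for fes1ΔL against WT. The FPKM table covers fewer genes and 4 of the 10 members, which gave 2 and 2 member calls for fes1Δ against WT, 1 and 1 for fes1Δ against fes1ΔL, and 0 and 0 for fes1ΔS against fes1ΔL. That last comparison had 4 member calls in the model of the 2 groups alone. For other wall genes FPKM gave 5 and 1 calls for fes1Δ and fes1ΔS against WT, and the 2 groups alone 7 and 8. Scaling by plain totals shifted the median of all genes by -0.085 for fes1Δ and -0.093 for fes1ΔS against WT.

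Leaving out 1 library gave 486 to 1051 calls for fes1Δ against WT (486 without WT 1), 251 to 410 for fes1ΔS against WT (251 without fes1ΔS 2), 59 to 128 for fes1Δ against fes1ΔS (59, 90 and 73 without fes1ΔS 1, 2 and 3), and 354 to 576 for fes1Δ against fes1ΔL (359 and 354 without fes1ΔL 2 and 3). Member calls ranged from 1 to 2 for fes1ΔS against WT, 0 to 1 for fes1Δ against fes1ΔS, 3 to 5 for fes1Δ against fes1ΔL and 1 to 2 for fes1ΔS against fes1ΔL. In that last comparison 185 to 221 genes were called over all.

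Signs changed only for log2 fold changes that were not called. On FPKM, CRH1 was at -0.074 and -0.074 and PST1 at -0.012 and -0.012 for fes1Δ against fes1ΔL, PST1 at -0.030 and -0.030 for fes1ΔS against WT, and SLT2 at -0.013 and -0.013 for fes1ΔS against fes1ΔL. With a pseudocount of 1, the FPKM median of all genes was -0.092, -0.071 and -0.080 in these comparisons, in that order. PST1 for fes1Δ against WT was at 0.0026 with RLE, 0.0015 with DESeq2 and 0.0025 with the replicate block. With 1 library left out, the ranges for fes1Δ against WT were -0.024 to 0.11 for CIS3 and -0.097 to 0.062 for PST1. For fes1ΔS against WT they were -0.13 to 0.20 for PIR3, -0.067 to 0.092 for PST1 and -0.034 to 0.014 for SLT2. For fes1ΔL against WT they were -0.070 to 0.010 for CIS3, -0.0027 to 0.14 for HSP150, -0.30 to 0.022 for PIR3, -0.017 to 0.099 for RLM1 and -0.0091 to 0.17 for SED1. For fes1Δ against fes1ΔS they were -0.080 to 0.056 for CIS3, -0.11 to 0.049 for HSP150 and -0.091 to 0.026 for PST1, and for fes1Δ against fes1ΔL -0.0056 to 0.13 for CIS3 and -0.020 to 0.039 for CRH1. The cause of these moves was not tested.

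Replicate numbers were not treated as pairs in the main fit. Same-numbered deviations correlated between -0.19 and 0.29, and in no comparison did every pair exceed 0.1. For fes1ΔL against WT they came near this limit, at 0.096 to 0.29, where differently numbered libraries had -0.26 to 0.098. Whether those libraries were handled in pairs is not known. With the replicate block, member calls were 3 for fes1Δ against WT, 5 for fes1ΔS against WT, 5 for fes1Δ against fes1ΔL and 3 for fes1ΔS against fes1ΔL. Of all 5719 genes, 717, 402, 556 and 274 were called with the block, in the same order. The block added the calls of PIR1 for fes1ΔS against WT (0.21, adjusted p = 0.0176), PIR1 and HSP150 for fes1Δ against fes1ΔL (0.0164 and 0.0379) and RLM1 for fes1ΔS against fes1ΔL (0.0391). It ended those of FIT1 for fes1Δ against WT (0.0609) and GSC2 for fes1ΔS against WT (0.0630). CPM per coding length and the heat-shock comparisons were not run. PIR3, at 66 to 125 counts, is the member that depth limits most.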
